A study of Homo sapiens with 5 samples.

Results

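HT1080 cells at low density that received recombinant IL-6 without IL-8 (the IL-6 library) were compared with untreated cells at the same density (the LD library). Of 27189 entries in each file, 10970 had at least 10 reads summed over these 2 libraries and were tested, after removal of the ribosomal RNA entry RNA5-8S5. HT1080 is a human fibrosarcoma cell line. The study embedded it in type I collagen at 2 mg per ml for 24 h and sequenced 5 conditions with 1 library each. LD held 10 cells per cubic mm without a cytokine. The IL-6, IL-8 and RM libraries held the same number of cells with recombinant IL-6, recombinant IL-8 and both together. The remaining library (HD), from 50 untreated cells per cubic mm, was not used here. The study compared these transcriptomes to ask how cell density and the 2 cytokines change HT1080 cells. The IL-6 dose is not given in the labels.

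IL-6 binds its receptor IL6R on the cell surface or in soluble form, and the complex recruits the shared signalling chain gp130, the product of IL6ST. Kinases of the JAK family bound to gp130 then phosphorylate the transcription factor STAT3, which enters the nucleus and switches on genes such as SOCS3, the feedback inhibitor of the pathway, and CEBPD, a regulator of acute phase genes. In liver the cytokine drives the acute phase response, and in tumours it is known for effects on survival, growth and movement.

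Each condition was 1 library, so no difference below has a replicate check, and each test compares these libraries and not the conditions. The total was 7118545 reads in LD and 5096134 in IL-6. RNA5-8S5 took 76.9% and 78.4% of them, which left 1645539 and 1100967 reads on all other entries. Median-ratio scaling multiplied IL-6 reads by 1.44 before they were set against LD reads. The smallest level that 3 reads could show was 1.82 CPM in LD and 2.72 CPM in IL-6, where CPM is a read number scaled to the library's total outside RNA5-8S5. Of the mesenchymal markers, 8 were tested and 0 were called, though 2 passed the adjusted p with a ratio under 2-fold. A called gene is one past both limits given in the next paragraph. VIM, the filament protein of mesenchymal cells, had 10796 reads in LD and 7318 in IL-6, a ratio of 0.979 after scaling. The summed level of the 10 mesenchymal markers in the files was 9857 CPM in LD and 10177 CPM in IL-6. NT5E, another marker of such cells, was at 0 in both. Epithelial markers summed to 82.6 CPM in LD and 33.6 CPM in IL-6, and EPCAM and CDH1, which define such cells, were at 0 in both. The 1 epithelial marker tested, the keratin gene KRT19, had 132 reads in LD and 35 in IL-6 and was called lower. Endothelial markers summed to 11 reads in LD and 20 in IL-6, with 5 and 3 of 8 at 0. Leukocyte markers summed to 436 and 310 reads (265 and 282 CPM), mostly on CD68, a lysosomal protein, with 404 and 283, and 6 of 10 were at 0 in both libraries. All 8 muscle and neural and all 6 red cell and liver markers were at 0 in both. The part of other cell types in the results was not tested.

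In IL-6 1872 of the 10970 genes (17.1%) differed from LD beyond the sampling of reads. A gene was called when an exact conditional binomial test of its 2 read numbers gave an adjusted p under 0.05 (Benjamini-Hochberg over all genes tested) and the scaled ratio was at least 2-fold. Of the called genes 968 (8.82%) were higher in IL-6 and 904 (8.24%) were lower. The middle 50% of all log2 ratios lay between -0.51 and 0.53. A further 1483 genes passed the adjusted p with a ratio under 2-fold. The 95% interval of the ratio lay wholly past 2-fold for 596 genes, 324 higher and 272 lower. Of the called genes 51 had no read in LD and 97 had no read in IL-6.

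**Figure D1:**
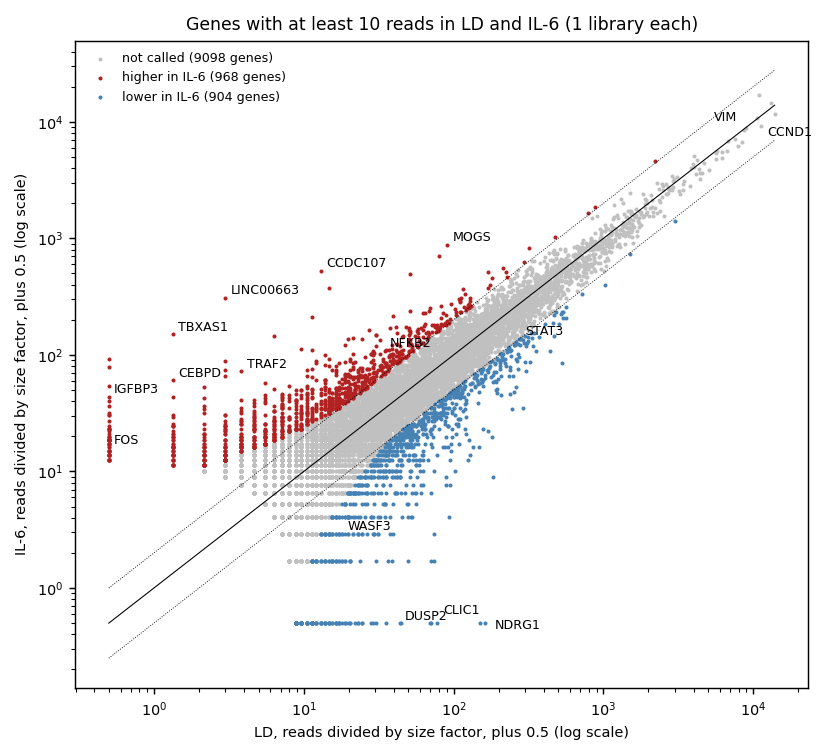
Reads of each of the 10970 genes divided by the library's size factor, plus 0.5, in LD (horizontal) and IL-6 (vertical), both on log scales; each point is 1 gene, the solid line marks equal levels and the dotted lines 2-fold differences. The 968 genes called higher (red) and 904 called lower (blue) lay mostly among genes with few reads, and points along the left and lower edges had no read in 1 library.

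The spread allowed for between libraries decided how many calls were made. With a biological coefficient of variation assumed at 0.4, edgeR's likelihood-ratio test called 65 genes higher and 31 lower, all of them among the calls above. With a dispersion estimated gene by gene from LD, IL-6, IL-8 and RM taken as 1 group, edgeR called 0 genes, and 63 had an unadjusted p under 0.05. Such an estimate counts differences between the conditions as spread, including the difference between IL-6 and LD itself. It therefore leans towards few calls and cannot decide how many genes differ. With 1 common dispersion for all genes, estimated the same way, it called 8. These were LINC00663, TBXAS1, EIF3CL, BRD2 and TMEM254-AS1, higher in IL-6, and NDRG1, CLIC1 and WAC-AS1, lower in IL-6.

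Under the same rule for reads, IL-6 against LD had the smallest share of called genes of the 6 pairs of low-density libraries. The share was 28.6% for IL-8 against LD and 33.3% for RM against LD. The 2 cytokine libraries IL-8 and IL-6 differed in 25.7% of genes. RM differed from IL-6 in 31.4% and from IL-8 in 35.7%.

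The IL-8 and RM libraries were set beside the calls to describe whether IL-6 or LD stood apart from the rest. Each was 1 library under another treatment, and RM also received IL-6, so neither repeats LD or IL-6. Scaled over the 4 low-density libraries, IL-6 was above LD, IL-8 and RM in 638 of the 968 genes called higher (65.9%), against 23.0% of all genes tested. LD was below the 3 others in 491 of the 968 (50.7%), against 18.8% of all genes. Among the 904 genes called lower, IL-6 was below the 3 others in 417 (46.1%), against 19.6% of all genes. LD was above the 3 others in 598 of them (66.2%), against 25% of all genes. The lower calls thus held more genes with a high value in LD than genes with a low value in IL-6. The calls themselves fix part of these shares, so they are given without a test. Below, 4 read numbers in a row follow the order LD, IL-6, IL-8 and RM.

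The genes with the firmest increase were those whose 95% interval lay furthest from equal levels. LINC00663, a long non-coding RNA, had 257 reads in IL-6 against 3 in LD, 0 with IL-8 and 5 in RM. Its ratio of IL-6 to LD was 124 (95% interval 41.9 to 604). TBXAS1, which encodes thromboxane synthase, had 1 read in LD, 125 in IL-6 and 0 in both other libraries, a ratio of 181 (31.8 to 7188). IL-6 stood apart from all 3 other libraries in both genes. CEBPD, the C/EBP-delta transcription factor that IL-6 is known to induce through STAT3, had 50 reads in IL-6 against 1 in LD, 1 with IL-8 and 1 in RM, a ratio of 72.2 (12.4 to 2909). RM, which also received IL-6, was thus as low as LD for CEBPD. IGFBP3, a carrier protein of insulin-like growth factors, had 36 reads in IL-6 and 0 in LD, IL-8 and RM, and was at least 17.3-fold higher (against 3 reads in LD). RAB17, a small GTPase of membrane traffic, had 33 reads in IL-6 and 0 in the 3 others, and was at least 15.9-fold higher.

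Further genes among the 15 with the firmest increase are given by their values. BRD2, a bromodomain protein that reads acetylated histones, had 65 reads in IL-6 against 0 in LD, 14 with IL-8 and 13 in RM, and was at least 31.3-fold higher than LD. GLTSCR1, a subunit of a BAF chromatin remodelling complex, had 17, 312, 40 and 169 reads, a ratio of 26.5 (16.3 to 46.1). SUV420H2, a methyltransferase of histone H4, had 3, 61, 2 and 2 reads, a ratio of 29.4 (9.59 to 146). After scaling, IL-6 was the highest of the 4 libraries and LD the lowest in all 3, though SUV420H2 in IL-8 and RM stayed near LD.

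The other genes with the firmest increase had mixed roles. CCDC107, a coiled-coil protein, had 438 reads in IL-6 against 15 in LD, 15 with IL-8 and 81 in RM, a ratio of 42.2 (25.3 to 76.0). SLC9A8, a sodium and proton exchanger, had 13, 174, 33 and 13 reads, a ratio of 19.3 (11.0 to 37.0), and on deposited TPM its log2 ratio was 6.72 against 4.27 on reads. VARS, the valyl-tRNA synthetase, had 3, 73, 69 and 12 reads, a ratio of 35.2 (11.6 to 174). IL-6 was the highest in the first 2, whereas VARS was higher still in IL-8. The entries AK126635 (7 and 121 reads in LD and IL-6) and AF055024 (0 and 30) are named by a GenBank clone. TMEM254-AS1, an antisense RNA, had 45 reads in IL-6 against 0 in LD, 3 with IL-8 and 66 in RM. TMEM254-AS1 was thus high in RM as well. EIF3CL, a copy of the translation factor gene EIF3C, had 77 reads in IL-6 and 0 in the 3 others. EIF3C itself had 780 reads in IL-6 against 1229 in LD, 640 with IL-8 and 761 in RM and was not called, and reads shared by the 2 near-identical genes could have been divided either way, so EIF3CL is uncertain.

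The gene lower in IL-6 by the widest margin was NDRG1, a gene known to be induced by low oxygen and by iron loss. It had 0 reads in IL-6 against 195 in LD, 0 with IL-8 and 95 in RM, and was at least 45.0-fold lower in IL-6 than in LD (against 3 reads in IL-6). CLIC1, a chloride intracellular channel protein, had 0 reads in IL-6 against 179 in LD, 78 with IL-8 and 244 in RM, and was at least 41.3-fold lower. The zero in IL-6 was shared by IL-8 for NDRG1 and stood alone for CLIC1. SRPK3, a kinase of splicing factors, had 83, 0, 0 and 83 reads and was at least 19.2-fold lower. TRMT61A, which methylates transfer RNA, had 85, 0, 12 and 32 reads and was at least 19.6-fold lower.

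In several other genes LD stood above all 3 cytokine libraries. PLA2G4C, a cytosolic phospholipase A2, had 7 reads in IL-6 against 221 in LD, 1 with IL-8 and 7 in RM, and was 21.9-fold lower in IL-6 (10.4 to 55.0). TSC22D3, the glucocorticoid-induced leucine zipper protein, had 89 reads in LD and 2 in each of the 3 others, and was 30.8-fold lower (8.28 to 258). C1orf51, a repressor in the circadian clock, had 112, 3, 1 and 1 reads, and was 25.9-fold lower (8.62 to 127). Each of these genes had 7 reads or fewer in every cytokine library. MED29, a subunit of the Mediator complex, had 53 reads in LD and 0 in the 3 others, and was at least 12.2-fold lower. DUSP2, a phosphatase of MAP kinases, had 52, 0, 0 and 3 reads and was at least 12.0-fold lower. STAP2, an adaptor protein that binds STAT3, had 85, 1, 3 and 1 reads, and was 58.8-fold lower (10.3 to 2351). These 6 genes were low with IL-8 and with both cytokines too, and these comparisons share the LD library.

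Among the rest, AK5, an adenylate kinase, had 1 reads in IL-6 against 89 in LD, 25 with IL-8 and 1 in RM. PRMT7, an arginine methyltransferase, had 59, 1, 5 and 16 reads. Both were near 0 in IL-6, and AK5 in RM too. DDI2, a protease that processes the transcription factor NRF1, had 42, 0, 12 and 2 reads. CHTF8, a part of a clamp loader at the replication fork, had 36, 0, 26 and 46 reads. IL-6 was the lowest of the 4 libraries for PRMT7, DDI2 and CHTF8. WAC-AS1 had 93, 0, 25 and 57 reads, while WAC on the other strand had 140, 76, 70 and 152 and was not called. The library protocol does not mark strand, so reads of the 2 cannot be told apart where they overlap.

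**Figure D2:**
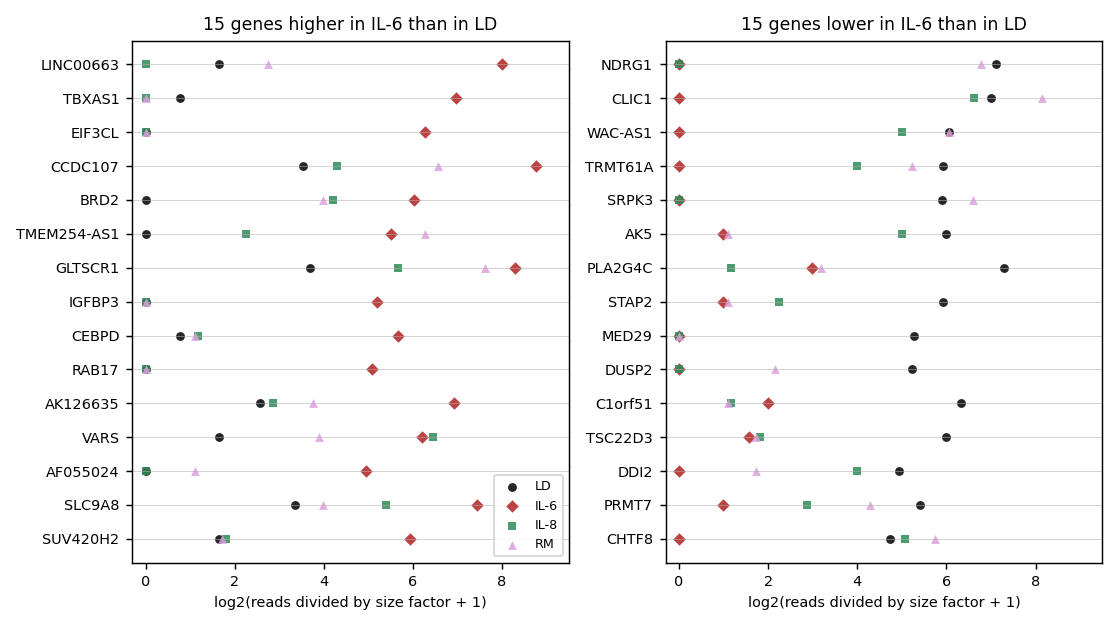
Log2 of reads divided by size factor, plus 1, in the 4 low-density libraries (LD black circles, IL-6 red diamonds, IL-8 green squares, RM purple triangles) for the 15 genes with the firmest increase (left) and decrease (right) from LD to IL-6; 1 library each, so no error bars. IL-6 was alone at the high end for genes such as TBXAS1, IGFBP3 and RAB17, and alone at 0 for genes such as CLIC1 and WAC-AS1.

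Genes of the IL-6 receptor pathway were called at a share near that of all genes, 20% against 17.1%. Of its 26 genes 20 were tested, 1 was higher and 3 were lower in IL-6, and the median log2 ratio was -0.30, against 0.00 for all genes tested. The receptor chain IL6R had 5 reads in IL-6 against 9 in LD, 9 with IL-8 and 8 in RM, too few to fix a direction (ratio 0.802, 0.211 to 2.67). IL6ST, which encodes gp130, had 70, 57, 29 and 48 reads and a ratio of 1.18 (0.814 to 1.69). The kinase genes JAK1 (161 and 91 reads in LD and IL-6) and TYK2 (202 and 128) had ratios of 0.816 and 0.915. None of these 4 was called, and the interval of each included 1. STAT3 had 114 reads in IL-6 against 331 in LD, 57 with IL-8 and 203 in RM and was 2.01-fold lower in IL-6 (1.62 to 2.51). Its call sat at the fold threshold, and it was lost when libraries were scaled by their total outside RNA5-8S5, where the log2 ratio was -0.96. Scaled over the 4 low-density libraries, STAT3 was at 234 reads in LD and 233 in RM, above both single-cytokine libraries.

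The remaining called members were adaptors, inhibitors and a protease. GAB1, a docking protein downstream of gp130, had 22 reads in IL-6 against 5 in LD, 2 with IL-8 and 4 in RM, a ratio of 6.36 (2.35 to 21.5). PIAS3, a protein that inhibits STAT3, had 81, 23, 29 and 96 reads and was 2.44-fold lower (1.52 to 4.06). ADAM10, a membrane protease that can release soluble IL6R, had 59, 19, 14 and 10 reads and was 2.15-fold lower (1.26 to 3.82). GAB1 was highest in IL-6 and ADAM10 highest in LD, while PIAS3 was lowest in IL-6. The feedback inhibitor SOCS3 had 19 reads in IL-6 against 23 in LD, 7 with IL-8 and 79 in RM, and its ratio was 1.19 (0.614 to 2.29). IL6, JAK2, SOCS1, SOCS2, CISH and PTPN6 had under 10 reads. Under the assumed variation of 0.4 the pathway had 0 called members.

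Of 30 genes known as STAT3 targets 22 were tested, 4 were higher and 3 were lower in IL-6, and the median log2 ratio was 0.05. The share called was 31.8%, against 17.1% of all genes, with calls in both directions. CEBPD is given above. FOS, a subunit of the AP-1 transcription factor, had 13 reads in IL-6 and 0 in LD, IL-8 and RM and was at least 6.26-fold higher. ZFP36, which speeds the decay of cytokine mRNA, had 4, 15, 2 and 12 reads, a ratio of 5.42 (1.73 to 22.4). IRF1, an interferon regulatory factor, had 16, 28, 8 and 13 reads, a ratio of 2.53 (1.32 to 5.00). On the deposited TPM values IRF1 was under 2-fold, with a log2 ratio of 0.59 against 1.34 on reads. IL-6 was the highest of the 4 libraries in all 4 of the higher genes. The lower genes were MUC1, a cell surface mucin, with 0 reads in IL-6 against 15 in LD, 1 with IL-8 and 0 in RM, the survival kinase PIM1, with 14, 0, 3 and 0, and its relative PIM3, with 86, 24, 33 and 11. LD was the highest in MUC1, PIM1 and PIM3. CEBPD and FOS were still called under the assumed variation of 0.4.

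The other 15 tested STAT3 targets were not called. CCND1, which encodes cyclin D1, had 16703 reads in LD and 9682 in IL-6, a ratio of 0.837 (0.816 to 0.859). BCL2L1, a survival factor of the BCL2 family, had 392 and 452 reads, a ratio of 1.67 (1.45 to 1.91). The first lay below its LD level and the second above it. JUNB, an AP-1 subunit, had 586 and 264 reads, a ratio of 0.651 (0.561 to 0.754). HIF1A, the oxygen-regulated transcription factor, had 237 and 90 reads, a ratio of 0.549 (0.425 to 0.702). Their intervals excluded 1, and their ratios were under 2-fold. The ratios of MYC (0.990, 0.564 to 1.71), CDKN1A (0.927, 0.845 to 1.02) and VEGFA (1.47, 0.978 to 2.22) had intervals that included 1. Acute phase protein genes were almost silent, with 1 of 16 tested. That gene, SERPINA1, had 5 reads in LD, 12 in IL-6 and 0 in IL-8 and RM, and was not called.

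The STAT recognition motif TTCNNNGAA was searched on both strands in the 250 bases before each transcription start of RefSeq (GRCh38.p14). It was present in 6.57% of all 35116 promoters, in 5.17% of those of genes called higher, in 5.94% of those called lower and in 5.31% of those tested and not called. Among the tested STAT3 targets 1 of 21 promoters held it. These promoters belong to 16 of the 22 tested targets, and the rest were not searched. The match was in IRF1, on the minus strand at chr5:132490774-132491023. It is shown because it is the searched target that holds the motif, with the match in capitals, 124 bases before the start.
IRF1: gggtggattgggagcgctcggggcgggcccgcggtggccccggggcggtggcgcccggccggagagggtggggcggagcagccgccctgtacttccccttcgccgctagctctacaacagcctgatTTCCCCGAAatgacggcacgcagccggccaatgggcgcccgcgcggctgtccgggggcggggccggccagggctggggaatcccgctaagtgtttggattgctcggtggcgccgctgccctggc
A match is a description of letters and not a bound site.

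Of the hypoxia response genes 17 of 21 were tested, and 5 were lower in IL-6 and 0 higher, a share called of 29.4%, against 17.1% of all genes. Of all genes 8.24% were lower. Their median log2 ratio was -0.21. NDRG1 is given above. DDIT4, an inhibitor of the growth kinase complex mTORC1, had 2 reads in IL-6 against 21 in LD, 2 with IL-8 and 12 in RM, and was 7.27-fold lower in IL-6 (1.78 to 64.0). BNIP3L, a mitochondrial protein that starts mitophagy, had 256, 84, 54 and 91 reads and was 2.11-fold lower (1.64 to 2.73). Both were low with IL-8 as well. KDM3A, a histone demethylase, had 55, 14, 18 and 10 reads and was 2.72-fold lower (1.49 to 5.30). MXI1, an antagonist of MYC, had 43, 14, 6 and 15 reads and was 2.13-fold lower (1.14 to 4.21). LD was the highest of the 4 libraries in all 5 genes. Of the 12 tested members that were not called, EPAS1, the second oxygen-regulated factor, had 15 and 19 reads in LD and IL-6, and BHLHE40, a transcriptional repressor, had 261 and 192. The glycolysis genes, many of which respond to low oxygen, had 2 of 24 higher and 0 lower (8.33%), with a median log2 ratio of -0.09. PKM, pyruvate kinase, had 1372 reads in IL-6 against 946 in LD, 763 with IL-8 and 998 in RM, a ratio of 2.10 (1.93 to 2.28). PFKL, phosphofructokinase of liver type, had 68, 98, 54 and 59 reads, a ratio of 2.08 (1.51 to 2.88). Under the assumed variation of 0.4 NDRG1 was the 1 hypoxia gene still called.

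The core of the hypoxia response element, ACGTG, was searched in the same way. It was present in 18.5% of all promoters, in 23.5% of those of genes called lower, in 20.4% of those called higher and in 22.7% of those tested and not called. Among the tested hypoxia genes it was present in 9 of 20 promoters, which belong to 7 of 13 genes with a promoter in the table. The promoter of DDIT4, on the plus strand at chr10:72273674-72273923, is shown as that of a gene lower in IL-6 and holds 1 match, in capitals, 125 bases before the start.
DDIT4: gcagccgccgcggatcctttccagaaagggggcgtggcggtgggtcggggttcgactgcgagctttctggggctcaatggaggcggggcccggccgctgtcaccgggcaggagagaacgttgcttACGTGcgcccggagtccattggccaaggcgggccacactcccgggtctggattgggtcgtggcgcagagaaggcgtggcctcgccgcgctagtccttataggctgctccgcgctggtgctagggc
The match says nothing on binding in these cells.

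**Figure D3:**
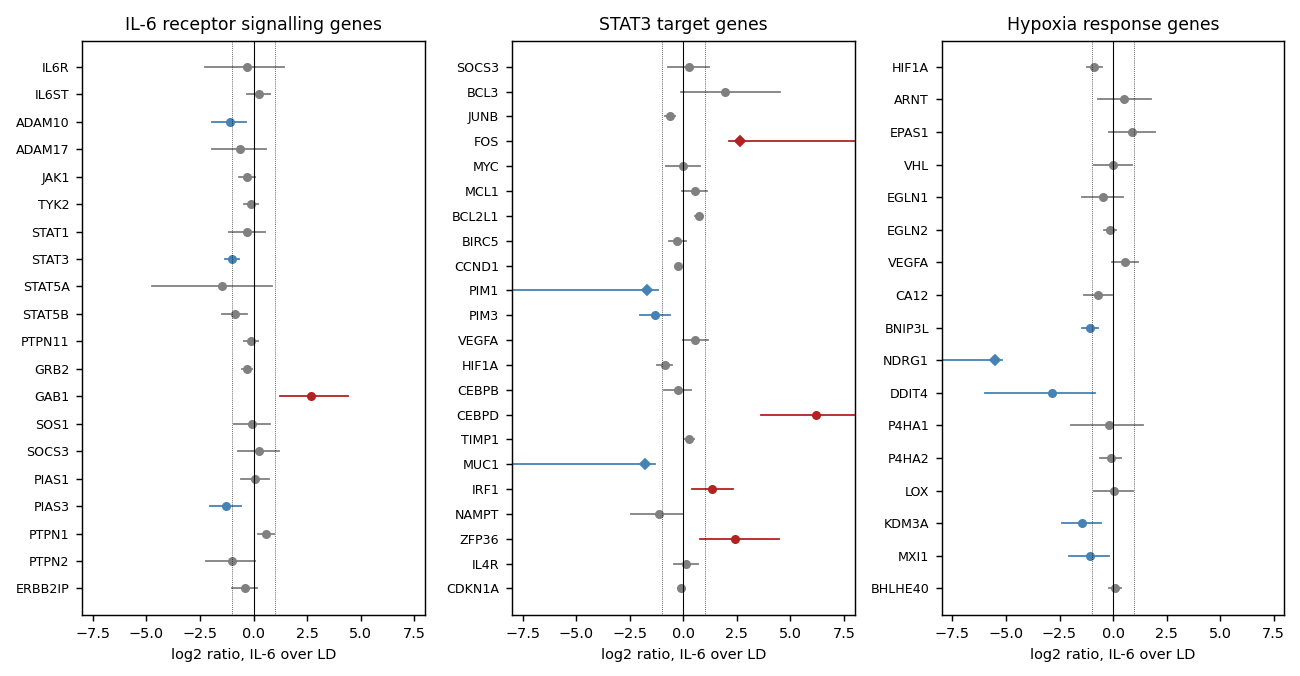
Log2 ratio of scaled reads, IL-6 over LD, for the tested members of 3 gene lists; points are the ratios, diamonds the ratios set against 3 reads where 1 library had none, bars the exact 95% intervals of read sampling (drawn up to 8 log2 units), dotted lines 2-fold, red called higher, blue called lower, grey not called. CEBPD lay furthest to the right among the STAT3 targets, and all 5 called hypoxia genes lay to the left.

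Genes of inflammation and of early responses gave calls in both directions. Of 14 tested genes of NF-kappaB signalling 3 were higher and 1 was lower (28.6% called, against 17.1% of all genes), with a median log2 ratio of 0.35. TRAF2, an adaptor of tumour necrosis factor receptors, had 60 reads in IL-6 against 4 in LD, 16 with IL-8 and 7 in RM, a ratio of 21.7 (8.04 to 82.1). NFKB2, the p100 subunit, had 41, 90, 33 and 111 reads, a ratio of 3.17 (2.17 to 4.71). NFKB2 was higher still in RM. NFKBIZ had 2, 10, 4 and 7 reads, a ratio of 7.22 (1.54 to 67.8). The inhibitor NFKBIA had 173, 50, 27 and 150 reads and was 2.40-fold lower (1.74 to 3.35). IL-6 stood above the 3 other libraries for TRAF2, as it did for NFKBIZ.

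Of 17 tested interferon response genes 1 was higher and 1 was lower (11.8%, against 17.1% of all genes), both parts of the same transcription factor complex. STAT2 had 87 reads in IL-6 against 34 in LD, 43 with IL-8 and 51 in RM, a ratio of 3.70 (2.46 to 5.67). Its partner IRF9 had 29, 0, 0 and 14 reads and was at least 6.69-fold lower. STAT2 was highest in IL-6, and IRF9 had no read in either single-cytokine library. Of 22 tested immediate early genes 3 were higher, FOS, ZFP36 and BTG2, and 2 were lower, DUSP2 and DUSP4 (22.7% called), with a median log2 ratio of 0.11. BTG2, an inhibitor of proliferation, had 13, 36, 70 and 9 reads, a ratio of 4.0 (2.07 to 8.22). DUSP4, a phosphatase of MAP kinases, had 270, 66, 107 and 170 reads and was 2.83-fold lower (2.16 to 3.77), and it was lowest in IL-6.

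Most cytokine genes were near silent in LD and IL-6. Of 12 other members of the IL-6 family and their receptors 6 were tested and 1 was lower. This share of 16.7% was near the 17.1% of all genes. The lower gene was OSMR, the receptor of oncostatin M, with 17 reads in IL-6 against 64 in LD, 12 with IL-8 and 51 in RM. It was 2.61-fold lower (1.51 to 4.75). Of 20 cytokines and chemokines 2 had enough reads, and neither was called: CSF1, the macrophage growth factor, with 204 and 188 reads, and CCL5 with 10 and 7. IL-8 and its receptors CXCR1 and CXCR2 had 0 reads in both libraries.

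Genes of the Arp2/3 complex were called at a share near that of all genes, 14.3% against 17.1%. All 21 genes of the Arp2/3 complex, which nucleates branched actin, and of the WAVE and related activators were tested, and 1 was higher and 2 were lower, with a median log2 ratio of 0.04. ACTR3B, an alternative Arp3 subunit, had 30 reads in IL-6 against 19 in LD, 39 with IL-8 and 57 in RM, a ratio of 2.28 (1.24 to 4.29). The activator WASF3 had 21, 2, 4 and 15 reads and was 7.27-fold lower in IL-6 (1.78 to 64.0). WAS, the Wiskott-Aldrich syndrome protein, had 18, 0, 3 and 0 reads and was at least 4.15-fold lower. WASF3 was low in both single-cytokine libraries, and WAS in all 3 cytokine libraries. The Arp2 gene ACTR2 had 133, 99, 46 and 68 reads and a ratio of 1.08 (0.820 to 1.41). Under the assumed variation of 0.4 this list had 0 called members, so that WASF3 lost its call.

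Of 56 tested actin and adhesion genes, which summed to 84285 reads in LD, 2 were lower and 0 higher (3.57% called), with a median log2 ratio of -0.14. Of all genes 17.1% were called, and of those with 500 or more reads 3.58%. ENAH, which extends actin filaments at the leading edge, had 306, 100, 140 and 123 reads and was 2.12-fold lower (1.69 to 2.68). TMSB4X, which binds actin monomers, had 128, 44, 28 and 41 reads and was 2.01-fold lower (1.42 to 2.91). LD was the highest library in both. TMSB4X lost its call when libraries were scaled by their total outside RNA5-8S5, with a log2 ratio of -0.96. Of 33 tested matrix genes 2 were higher and 1 lower (9.09%). COL5A1, a chain of collagen V, had 217, 377, 220 and 168 reads, a ratio of 2.51 (2.12 to 2.98). VCAN, the proteoglycan versican, had 30, 42, 12 and 24 reads, a ratio of 2.02 (1.24 to 3.35). VCAN fell under 2-fold with scaling by totals that include RNA5-8S5 (log2 ratio 0.97) or over 4 libraries (0.98), and its log2 ratio on TPM was 1.86. LAMA4, a laminin chain, had 77, 21, 18 and 61 reads and was 2.54-fold lower (1.55 to 4.33), but on deposited TPM its log2 ratio was -0.61 against -1.34 on reads, under 2-fold. COL5A1 and VCAN were highest in IL-6.

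Growth genes were called in both directions. Of 36 tested replication genes 5 were higher and 4 lower (25% called, against 17.1% of all genes), with a median log2 ratio of -0.24. The higher ones included GINS4, a helicase subunit, with 40 reads in IL-6 against 17 in LD, 14 with IL-8 and 15 in RM, and E2F1, the S phase transcription factor, with 29, 53, 16 and 24. CDT1, which licenses origins, had 23, 49, 47 and 45 reads, so that LD was the low library there. The lower ones included MCM4, a subunit of the replicative helicase, with 324, 102, 196 and 286 reads, 2.20-fold lower (1.76 to 2.77). Calls by read sampling in this list thus ran both ways, also within the helicase. Under the assumed variation of 0.4 the replication list had 0 called members. Of 37 tested mitosis genes 0 were higher and 2 lower (5.41%), with a median log2 ratio of -0.25. CKS1B, which binds cyclin-dependent kinases, had 611, 154, 114 and 125 reads and was 2.75-fold lower (2.3 to 3.3). KIF20A, a motor of cytokinesis, had 74, 17, 23 and 10 reads and was 3.01-fold lower (1.76 to 5.45). Both had their high value in LD. Of 14 tested replication-dependent histone genes 1 was higher (HIST1H2AH) and 3 were lower (HIST4H4, HIST1H2BL and HIST2H2AA4). Such mRNAs largely lack poly-A tails and were primed on oligo-dT here, and near-identical copies can share reads, so their values are uncertain.

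Housekeeping genes include many with high read numbers, and 3.58% of all genes with 500 or more reads were called, against 17.1% of all genes. Of 82 cytosolic ribosomal protein genes tested, with 129828 reads in LD and 86827 in IL-6, 1 was called, RPL26L1, a relative of RPL26, with 21 and 43 reads. Of 43 proteasome genes 1 was called, PSMD3, a subunit of the regulatory cap, with 195 reads in IL-6 against 633 in LD, 398 with IL-8 and 592 in RM. Their shares called were 1.22% and 2.33%. Mitochondrial ribosomal proteins had 6 higher and 2 lower of 74 (10.8%), and oxidative phosphorylation genes 3 higher and 4 lower of 74 (9.46%). MRPL43, of the large mitochondrial subunit, had 314, 76, 142 and 908 reads and was 2.86-fold lower (2.22 to 3.73). NDUFB7 of respiratory complex I had 123, 207, 100 and 301 reads, a ratio of 2.43 (1.94 to 3.06), while NDUFS3 of the same complex had 234, 78, 310 and 60 reads and was 2.08-fold lower (1.60 to 2.72). Calls by read sampling thus ran in opposite directions within 1 complex. Under the assumed variation of 0.4 the oxidative phosphorylation list had 0 called members.

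The further stress and signalling lists given in this paragraph were called at shares at or below the 17.1% of all genes. The exception was a share of 17.2% for unfolded protein and ATF4 genes. Of 29 tested genes of this list 3 were higher and 2 lower. HERPUD1, which acts in protein degradation at the endoplasmic reticulum, had 70, 9, 14 and 9 reads and was 5.38-fold lower (2.68 to 12.3), and SESN2, a stress-induced sestrin, had 72, 140, 83 and 325 reads, a ratio of 2.81 (2.10 to 3.79). Heat shock chaperones had 0 higher and 2 lower of 17, DNAJB1 and HSPB8. Cholesterol synthesis genes had 0 higher and 2 lower of 24. MVK, mevalonate kinase, had 75, 10, 25 and 80 reads and was 5.19-fold lower (2.67 to 11.3). IL-6 was the lowest of the 4 libraries for MVK. Genes of p53 and apoptosis had 1 higher (MDM4) and 1 lower of 28, and NRF2 targets with metallothioneins 0 higher and 2 lower (PGD and SLC7A11) of 25. Of 24 TGF-beta pathway genes 1 was higher and 3 were lower (16.7% called). SMAD4, the shared signal transducer, had 23, 44, 6 and 18 reads, a ratio of 2.76 (1.63 to 4.79). The receptors ACVRL1 (37, 2, 1 and 0 reads) and TGFBR1 (24, 5, 9 and 20) and the target ID2 (29, 6, 3 and 29) were lower. ACVRL1 had its high value in LD alone.

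**Figure D4:**
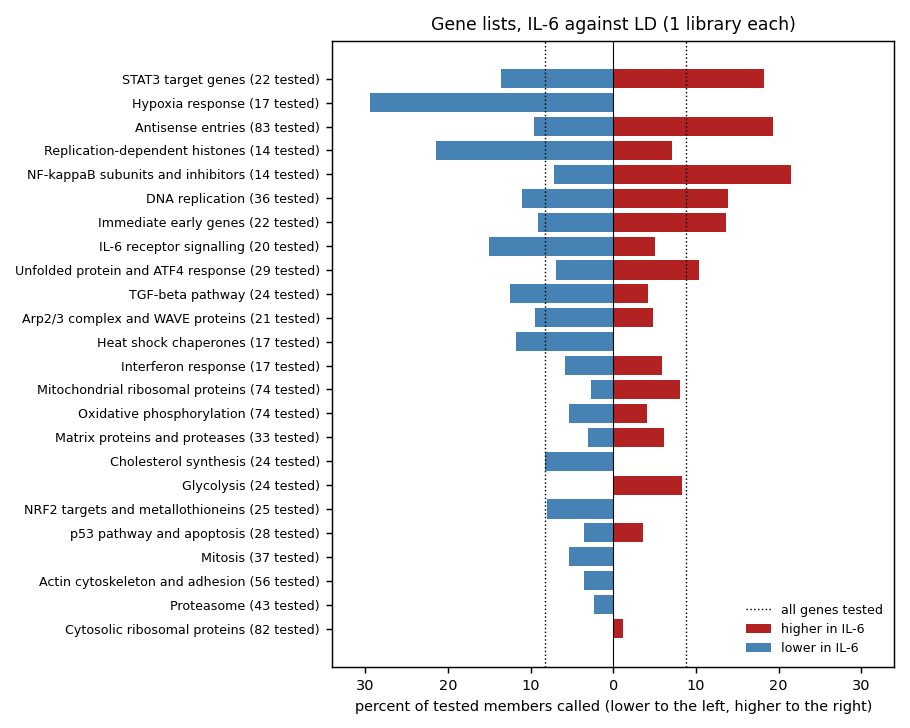
Percent of the tested members of each list called lower (blue, left) or higher (red, right) in IL-6 than in LD, with lists of 10 or more tested members ordered by total share called; dotted lines mark the shares of all genes tested, 8.24% lower and 8.82% higher. Hypoxia genes stood at the left with 5 of 17 lower, and cytosolic ribosomal protein, proteasome and actin genes were nearest to 0.

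Non-coding entries were called in both directions. Of 83 tested antisense entries 16 were higher and 8 lower (28.9% called, against 17.1% of all genes). The part of read number in this share was not tested. ITPK1-AS1 had 16 reads in IL-6 against 0 in LD, 2 with IL-8 and 1 in RM, and ITPK1 itself, an inositol kinase gene, had 47, 179, 103 and 55, a ratio of 5.50 (3.97 to 7.76). Both entries were highest in IL-6. The library protocol does not mark strand, so reads of this pair cannot be told apart where they overlap. FGD5-AS1 had 29, 0, 2 and 0 reads. Of 7 small nucleolar RNAs with enough reads 1 was higher, SCARNA12 (2, 26, 8 and 3 reads), and 1 lower, SNORD17 (45, 2, 1 and 1 reads). Of 5 microRNA host entries MIRLET7BHG was higher, with 34 and 58 reads in LD and IL-6. Of 4 olfactory receptor entries 0 were called, among them OR51B5 with 12 and 5 reads and OR51Q1 with 7 and 6.

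The share of called genes moved with read number and with base composition. Among genes with 10 to 19 reads 14.6% were called, among those with 50 to 99 reads 24.8%, and among the 1090 genes with 500 or more 3.58%. Of the tested genes 89.4% matched a GENCODE 29 transcript. In 5 equal groups by the GC content of the longest transcript, 9.64% were called in the lowest group, then 11.5%, 16.8%, 20.2% and 23.8% in the highest. Median reads in LD also rose over these groups, from 25 to 69, and the part of GC content in the calls was not tested.

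**Figure D5:**
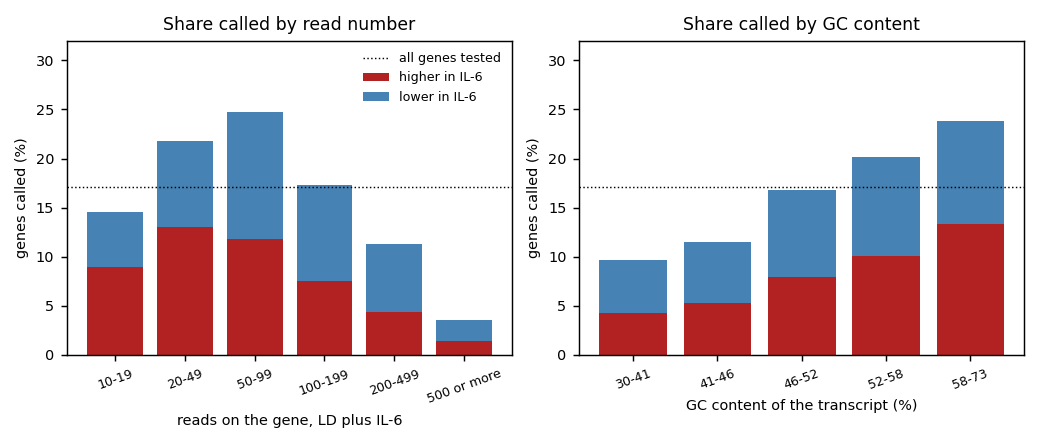
Percent of genes called higher (red) or lower (blue) in IL-6 than in LD, by the number of reads in both libraries together (left) and by 5 equal groups of transcript GC content (right); the dotted line is the 17.1% of all genes tested. The share fell to 3.58% for genes with 500 or more reads and reached 23.8% in the group with the highest GC content.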

How the data were processed

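RNA was primed on oligo-dT, the cDNA pool was amplified with phi29 polymerase, and libraries were made with a transposase kit that does not mark strand. The authors aligned the 50-base single reads with Bowtie2 (2.3.1) to GRCh37 (hg19) and quantified genes with RSEM (1.2.25). Annotation and settings are not given in the sources used here. They deposited a whole-number read count for each entry, without normalization, and a TPM value, scaled for transcript length and library total. Amplified reads are not independent molecules, so intervals cover counting error only.

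Counts of LD and IL-6 were compared gene by gene after removal of RNA5-8S5, with at least 10 reads in sum, median-ratio size factors, an exact conditional two-sided binomial test, Benjamini-Hochberg adjustment over 10970 genes (adjusted p under 0.05) and a ratio of at least 2. Ratio intervals are exact (Clopper-Pearson, 95%). A gene at 0 in 1 library was set against 3 reads there, also in list medians. Positions among 4 libraries used size factors of 1.42 (LD), 1.01 (IL-6), 0.799 (IL-8) and 0.872 (RM). A model of LD and IL-6 alone has no residual degrees of freedom, and with no replicate labels for separate cultures the tests measure read sampling. The test was checked on simulated counts with read sampling (Poisson) as the only spread. That check does not cover spread from amplification or between cultures.

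Named genes were the 15 in each direction with the interval limit furthest from no change, up to 4 called members of each list (or the 2 with most reads), all members of the IL-6 receptor and STAT3 target lists, WASF3, ACTR2, STAT3 and RNA5-8S5. Members and lists were chosen with earlier results of these data known. Genes named beyond this rule (MXI1, EPAS1, BHLHE40, EIF3C, WAC, ITPK1 and those of the last section) were chosen after their values were seen. Alternatives were other scalings, read filters, fold thresholds and edgeR with assumed or estimated dispersion. The common dispersion was added after the values had been seen. Tests ran in edgeR 4.0.16 (R 4.3.3) and scipy 1.17.1 (Python 3.11.15). A few called genes are not reported here by name. Promoters are RefSeq's (GRCh38.p14). Gene positions were otherwise not printed, as the files use another build.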

Additional observations from a re-analysis of the deposited data

How the results depend on the processing

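No paired analysis was possible because each condition was 1 library, and no library could be left out. Genes called higher and lower numbered 968 and 904. Scaling by total reads gave 1055 and 834 outside RNA5-8S5 and 885 and 992 with it, TMM factors 975 and 902, 4-library median ratios 902 and 961, no read filter 895 and 950, and a 1.5-fold threshold 1323 and 1352. At least 50 reads in sum gave 505 and 500, at least 10 reads in each library 575 and 508, a 4-fold threshold 384 and 354, and no fold threshold 1584 and 1771. The higher share of calls ran from 47.1% to 55.8% over the scalings. edgeR gave 411 and 390 with an assumed variation of 0.2, 65 and 31 with 0.4, 0 and 0 with gene-by-gene dispersion over 4 libraries, and 5 and 3 with the common one (variation 0.560), which was added after the values had been seen. No gene called in these settings had the opposite direction to its call among the 968 and 904. This was fixed in advance and is no check. Fold and edgeR settings kept the same ratios, and the other scalings shifted the median log2 ratio by at most 0.049. The 1055 genes with IL-6 outside the other 3 libraries became 1030 with total-read scaling. Uncalled genes near 0 changed sign: CCL5 to -0.032 (total with RNA5-8S5) and -0.022 (4-library scaling), and MYC to 0.036 (total outside it), all log2 ratios. By scaling, STAT3 (-0.96), TMSB4X (-0.96) and VCAN (0.97) lost their calls. On deposited TPM 72 of 78 named called genes stayed past 2-fold, and STAT3, TMSB4X, LAMA4, MIRLET7BHG, PIM3 and IRF1 did not. These 78 had a TPM above 0 in both LD and IL-6, and named genes at 0 in either were not checked on TPM. Depth limits genes with few reads, whose intervals span several-fold.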

Other observations

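Genes with many reads have the least counting error in their ratios. Spread from amplification or between cultures is not covered by their intervals. There were 39 called genes with 500 or more reads in LD and IL-6 together, 15 higher and 24 lower. MOGS, a glucosidase that trims N-glycans, had 729 reads in IL-6 against 108 in LD, 83 with IL-8 and 73 in RM, a ratio of 9.75 (7.96 to 12.0). CDK10, a cyclin-dependent kinase, had 96, 587, 411 and 2621 reads in LD, IL-6, IL-8 and RM, the order used below, a ratio of 8.83 (7.11 to 11.1). MOGS was high in IL-6 alone, while CDK10 was higher still in RM. NCAM1, a neural cell adhesion molecule, had 204, 425, 360 and 152 reads, a ratio of 3.01 (2.54 to 3.57). The entries MTND5 (380 and 690 reads in LD and IL-6) and cytochrome b (268 and 430), both encoded in mitochondrial DNA, had ratios of 2.62 and 2.32. Both were highest in IL-6 of the 4 low-density libraries.

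Among the lower genes of this depth, YY1, a zinc finger transcription factor, had 1177 reads in IL-6 against 3616 in LD, 2371 with IL-8 and 2406 in RM and was 2.13-fold lower (ratio 0.470, 0.440 to 0.502). POLL, DNA polymerase lambda, had 639, 71, 163 and 66 reads and was 6.23-fold lower. LAT, an adaptor of T cell receptor signalling, had 526, 89, 1105 and 1026 reads and was 4.09-fold lower. IL-6 was the lowest library for YY1 and LAT, and LD the highest for POLL. Subunits of the proton pump of endosomes and lysosomes differed in opposite directions, ATP6V0B with 1230 and 331 reads in LD and IL-6 and ATP6V1F with 568 and 859. HBE1, the embryonic globin, had 349, 29, 219 and 168 reads and was 8.33-fold lower in IL-6 (5.70 to 12.6).

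In the MHC region of chromosome 6, from GABBR1 to KIFC1 by gene order in RefSeq, 15 of 53 tested genes were called (28.3%), 10 higher and 5 lower, against 13.9% of 424 tested genes on the rest of the chromosome and 17.1% of all genes. DDAH2, which is related to an enzyme of methylarginine breakdown, had 11, 94, 4 and 126 reads, and TAPBP, a chaperone of class I loading, had 28, 53, 9 and 21. CLIC1, BRD2 and VARS lie in this region. The region was chosen after these values were seen, and the difference in share was not tested. Of 375 tested entries named by a GenBank clone 78 were higher and 19 lower (25.9% called, against 8.82% higher and 8.24% lower over all genes), with median reads of 10 in LD and 11 in IL-6. Of 17 tested collagen chains 3 were higher and 0 lower (17.6%), and of 26 kinesins 0 were higher and 4 lower (15.4%, median log2 ratio 0.17), shares near that of all genes. Of 254 ZNF zinc finger genes 32 were higher and 25 lower (22.4%), of 198 entries named LOC 31 and 19 (25.3%), and of 19 HOX genes 2 and 4 (31.6%). Median reads in LD and IL-6 were 15 and 13 for ZNF genes and 13 and 11 for LOC entries. Of all genes with 20 to 49 reads in LD and IL-6 together 21.8% were called. The part of read number in the shares of these classes was not tested.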
